A study of Mus musculus with 3 samples.

Results

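Pit-like surface mucous cells of the fetal mouse stomach were chosen by their RNA: at least 2 of the 5 genes Gkn1, Gkn2, Mucl3, Psapl1 and Lypd8l with a UMI, and Tff1 at 0.3% or more of the cell's UMIs. A UMI, or unique molecular identifier, stands for 1 captured RNA molecule. The rule found 394 cells among 21602 that passed the filters on cells, 7 in the YAP5SA library, 191 in the Yap knockout library and 196 in the control library. Glandular stomachs (hindstomachs) at embryonic day 18.5 were minced, digested with trypsin and DNase I, freed of red cells by lysis and captured in droplets, and the 3′ ends of RNAs were tagged with a cell barcode and a UMI. All groups carried Shh-Cre, a recombinase driven by the Sonic hedgehog gene, which is expressed in stomach epithelium. The YAP5SA library came from Shh-Cre;YAP5SA embryos, which express a YAP that Hippo kinases cannot restrain, the Yap knockout library from Shh-Cre;YaploxP/loxP embryos, in which Cre deletes Yap1, and the control library from embryos with Shh-Cre alone. Each genotype had 1 library, and the sources used here do not give the number of embryos behind each. No difference between genotypes below therefore has a replicate check or a test, and the intervals are exact 95% intervals that cover counting error only.

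Surface mucous cells line the gastric surface and the pits that open onto it. They secrete a mucus gel together with trefoil peptides, small disulfide-bonded proteins that protect and help reseal the surface, and gastrokines, proteins secreted by the stomach lining. Tff1 encodes the trefoil peptide of these cells, Gkn1 and Gkn2 their gastrokines, and in the adult mouse Muc5ac encodes their main gel-forming mucin. They are renewed from progenitors in the gland isthmus, whose other progeny are mucous neck cells, chief cells that store pepsinogen, and acid-secreting parietal cells. YAP, encoded by Yap1, acts with TEAD factors on genes of growth and regeneration, and the study set YAP activity states of this epithelium against each other.

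Gkn1 and Gkn2 are neighbouring genes on mouse chromosome 6 and are transcribed on opposite strands. The 250 bases before the start of each are shown, since both genes are part of the rule and lie side by side. They come from RefSeq on GRCm38.p6, not the build of the counts. Capitals mark AGATAA, a sequence bound by GATA factors, and the core promoter element TATAAA.
Gkn1: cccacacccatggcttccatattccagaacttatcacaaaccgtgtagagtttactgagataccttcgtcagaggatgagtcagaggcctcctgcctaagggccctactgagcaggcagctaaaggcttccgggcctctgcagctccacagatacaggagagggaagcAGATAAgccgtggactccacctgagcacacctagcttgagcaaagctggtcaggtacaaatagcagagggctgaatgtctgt
Gkn2: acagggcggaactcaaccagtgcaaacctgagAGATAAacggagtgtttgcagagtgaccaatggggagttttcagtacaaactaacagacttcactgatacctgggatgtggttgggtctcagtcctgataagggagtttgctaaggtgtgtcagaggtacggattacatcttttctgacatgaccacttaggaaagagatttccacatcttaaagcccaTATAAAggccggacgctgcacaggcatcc
The Gkn1 stretch spans chr6:87350916-87351165 on the minus strand, and the Gkn2 stretch chr6:87373115-87373364 on the plus strand. AGATAA lay 82 bases before the Gkn1 start and 218 bases before the Gkn2 start, and TATAAA lay 29 bases before the Gkn2 start. Each was searched on both strands, in windows from 250 bases before to 50 bases after the start. Among 32851 such mouse windows, 11.2% held AGATAA. The other element, TATAAA, was in 13.6%. The TEAD motif GGAATG was in 14.7% of all windows and in neither of these. The forkhead motif TGTTTAC was in 3.65% and also in neither of these. A match in letters is a description and not a measured site. RefSeq windows were found for 4 of the 6 genes of the rule.

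The deposited matrices held 9439 YAP5SA, 5739 Yap knockout and 7692 control cells, with 65843658, 40857358 and 48910624 UMIs. With 500 or more genes and no more than 20% mitochondrial UMIs, the cells that passed numbered 9029 in YAP5SA, 5201 in the Yap knockout and 7372 in the control. For comparison, other epithelial cells were those with a UMI in at least 3 of 8 general epithelial genes (Epcam, Cdh1, Cldn3, Cldn4, Cldn7, Krt8, Elf3 and Esrp1) that were not pit-like, 3251 in YAP5SA, 962 in the Yap knockout and 611 in the control. Panel-negative cells, 1538, 1683 and 3601 in the same order of libraries, had none of the 8 and were not pit-like. They serve as a background for epithelial RNA but may include epithelial cells whose panel RNA was missed. The highest panel-negative cell had 26.5% of its UMIs in gut endocrine genes in the Yap knockout. In the control the highest had 1.56% in Tff1. Cell names in the matrices are running numbers and not barcode sequences, so the 2409 names that YAP5SA and control share, the 1388 that Yap knockout and control share and the 1528 that YAP5SA and Yap knockout share say nothing about shared cells.

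Cells with the pit-like combination of transcripts were rare in the YAP5SA library. They made up 0.0775% of filtered cells in YAP5SA (0.0312 to 0.160), 3.67% in the Yap knockout (3.18 to 4.22) and 2.66% in the control (2.30 to 3.05). The YAP5SA share was 34.3-fold below the control share, and the Yap knockout share was 1.38 times the control share. The libraries also held different proportions of epithelium, so the same cells were set against the epithelial-panel cells and pit-like cells together. On this base the shares were 0.215% in YAP5SA (0.0864 to 0.442), 16.6% in the Yap knockout (14.5 to 18.8) and 24.3% in the control (21.4 to 27.4). YAP5SA lay below the control on both bases. The Yap knockout lay above the control per filtered cell and below it per epithelial cell, so the order of these libraries depends on the base. A lack of such cells and cells with less RNA of the 6 genes cannot be told apart here.

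**Figure D1:**
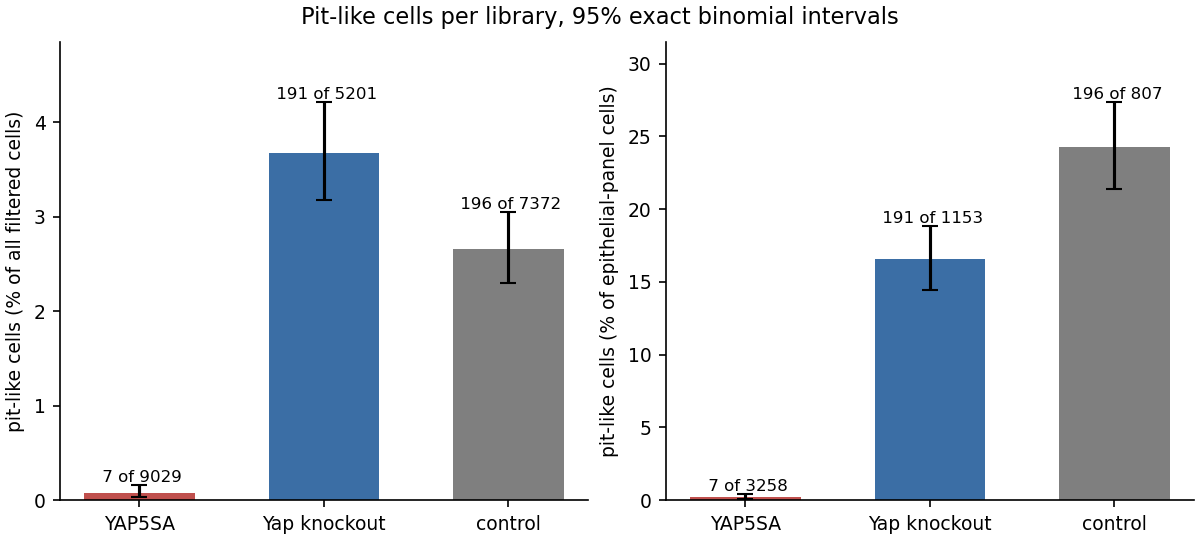
Pit-like cells as a percent of all filtered cells (left) and of epithelial-panel cells with all pit-like cells (right) in the YAP5SA, Yap knockout and control libraries; bars are shares, error bars exact 95% binomial intervals, and counts stand above. YAP5SA is lowest in both panels at 0.0775% and 0.215%, while the Yap knockout is above the control on the left (3.67% and 2.66%) and below it on the right (16.6% and 24.3%).

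The 6 genes of the rule are described here without a test, since they chose the cells. Tff1 took a median 1.18% of a pit-like cell's UMIs in YAP5SA, 1.75% in the Yap knockout (range 0.327 to 10.2) and 1.47% in the control (0.311 to 12.6). The nearest cells inside and outside the Tff1 threshold stood at 0.350% and 0.242% in YAP5SA, 0.327% and 0.298% in the Yap knockout and 0.311% and 0.298% in the control, so in the Yap knockout and the control the threshold cuts a continuous range. All 5 further marker genes were found in 34 Yap knockout and 24 control cells, and only 2 of them in 42 and 69. Mucl3, a mucin-like membrane protein, had a UMI in 97.4% of Yap knockout and 93.4% of control pit-like cells, and Lypd8l in 80.6% of both. Gkn1 had one in 80.6% and 68.9% and Gkn2 in 67.0% and 54.1%. Psapl1, related to the lysosomal saposin precursor, was the scarcest at 24.1% and 20.4%. In panel-negative cells Gkn1 had a UMI in 4.81% of Yap knockout and 4.33% of control cells, and Tff1 in 56.1% and 45.7%. A single Tff1 UMI thus does not mark a pit-like cell here.

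In the Yap knockout and control libraries most RNA of the gastrokines sat inside the pit-like cells. The rule chose these cells partly by the genes of this paragraph, so the shares describe the choice and test nothing. Pit-like cells held 83.7% of 2403 Gkn1 UMIs of the filtered Yap knockout library and 62.8% of 1337 in the control. For Gkn2 they held 84.0% of 2015 UMIs and 64.7% of 740. Across the whole YAP5SA library there were 27 Gkn1 UMIs and 6 Gkn2 UMIs, although its UMI total was the highest of the 3, and 22.2% and 33.3% of them lay in its pit-like cells. The YAP5SA total of Mucl3 was 2050 UMIs, against 2912 in the Yap knockout and 2151 in the control, and 0.878% of the YAP5SA UMIs lay in pit-like cells, against 73.0% and 58.3%. Other epithelial cells held 1756 of the YAP5SA Mucl3 UMIs, and 20.0% of them had at least 1. Tff1 was counted 1768 times in YAP5SA, 69081 times in the Yap knockout and 36417 times in the control.

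The 7 YAP5SA cells were uneven. One had 7995 UMIs, of which 181 were Tff1, 20 Lypd8l, 4 Gkn1, 2 Mucl3 and 2 Muc5ac, with 249 of the pepsinogen gene Pga5. Another of 1614 UMIs held 57 Tff1, 2 Gkn2, 2 Lypd8l and 1 Gkn1. The one nearest the threshold had 8 Tff1 UMIs among 2285, with 1 Gkn1 and 1 Mucl3. The other 4 had 28 to 55 Tff1 UMIs, and none of them held Gkn1 or Gkn2. With 7 cells, no further gene is compared for YAP5SA.

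UMIs of Gkn1 and Gkn2 in the same cell are given as counts only, since the rule asks for at least 2 of 5 genes that include both. In the Yap knockout 113 cells held both, 41 Gkn1 alone, 15 Gkn2 alone and 22 neither. The control had 90, 45, 16 and 45 such cells. After each cell was thinned to 1000 UMIs, both were seen in 61 Yap knockout and 52 control cells and neither in 83 and 84, so the libraries were closer at equal depth. The median pit-like cell held 6199 UMIs in the Yap knockout and 3508.5 in the control.

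Genes outside the rule describe these cells further. CPM are UMIs of the gene per 1000000 UMIs summed over the cells. Of 18 fixed pit genes, 13 reached 50 CPM in pit-like or other epithelial cells of the Yap knockout and 12 in the control. All of these were higher in pit-like than in other epithelial cells (median log2 ratio 1.63 and 1.58). Genes that reached 50 CPM only in pit-like cells, such as Krt20, were higher by that choice. One of the pit genes, Tff2, is also on the list of neck and chief genes used below. Over all 3609 genes tested in the Yap knockout, 251 were at least 2-fold higher (6.95%) and 509 at least 2-fold lower (14.1%) in pit-like cells, with a median of -0.23. In the control 8.45% of 3490 genes were higher and 7.65% lower, with a median of -0.16. TMM scaling put the Yap knockout median at 0.17 and its split at 417 higher and 247 lower. Cells were chosen by 6 genes of the same lineage, so these counts describe them and test nothing. Muc1, a membrane mucin of gastric surface, stood at 478 CPM in pit-like and 177 CPM in other epithelial cells of the Yap knockout, and at 633 and 223 CPM in the control. Foxq1, a forkhead factor needed for Muc5ac production in mouse surface cells, stood at 441 and 157 CPM in the Yap knockout and 329 and 145 CPM in the control. Krt20, a keratin of mature gut surface cells, stood at 76.7 and 4.79 CPM in the Yap knockout and at 102 and 6.18 CPM in the control.

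One defining marker was nearly absent. Muc5ac had a UMI in 12.6% of Yap knockout pit-like cells (8.22 to 18.1) and 2.55% of control ones (0.833 to 5.85), against 4.99% and 3.93% of other epithelial cells in the same libraries. Its level was 19.2 CPM in Yap knockout pit-like cells, from 44 UMIs, and 7.70 CPM in the control, from 8 UMIs. At 1000 UMIs per cell 0.524% and 0.510% of pit-like cells showed it, which is 1 cell in each library. The gel mucin that was found is Muc5b, known mainly from airways and salivary glands, at 1145 CPM in Yap knockout and 2616 CPM in control pit-like cells. Of the genes outside the rule, Krt20 set these cells apart also from the stricter epithelium described below, Muc1 and Foxq1 hardly did, and Muc5ac was too scarce to tell.

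The transcripts that filled these cells were secreted products. Tff1 stood at 24994 CPM in the Yap knockout and 24736 CPM in the control. CPM of 3′ tags is not scaled by transcript length. Pga5, a pepsinogen, stood at 28890 and 20683 CPM, and Cym, which encodes chymosin, the milk-clotting protease of the newborn stomach, at 30517 and 19539 CPM. Bpifb1, a secreted protein of the BPI fold family, stood at 9671 and 12796 CPM. These were the 4 most abundant named genes without a ribosomal or mitochondrial role. In other epithelial cells Cym reached 19440 CPM in the Yap knockout and 22349 CPM in the control, a range that overlaps pit-like cells, and in panel-negative cells 1246 and 816 CPM. Pga5 reached 8938 and 8145 CPM in other epithelial cells and 662 and 453 CPM in panel-negative cells. In the stricter epithelium described below, Cym stood at 44066 CPM in the Yap knockout and 46819 CPM in the control. Both Cym values were above those of pit-like cells. Pga5 stood there at 20186 CPM in the Yap knockout and 18356 CPM in the control.

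Ranked by the lower of the ratios in the Yap knockout and control libraries, the genes that marked pit-like cells most were Phgr1, Sptssb, Gsta1, Krt20, Sprr2a3, Rep15, Fam3b, Dnase1l2, Smim24, Sult1c2, Lypd8 and Syt8. Phgr1 stood at 1058 CPM in pit-like and 48.6 CPM in other epithelial cells of the Yap knockout, and at 1725 and 90.6 CPM in the control. Sptssb, a small subunit of the enzyme that begins sphingolipid synthesis, was 4.17 higher on the log2 scale in the Yap knockout and 3.42 in the control. Gsta1, a glutathione transferase, stood at 903 and 56.7 CPM in the Yap knockout and 668 and 59.7 CPM in the control. Gsta1 and Sprr2a3 have near-identical copies, and how reads were shared among them is not given. Lypd8, a membrane-anchored protein that binds flagella of bacteria in the mouse colon, stood at 904 and 132 CPM in the Yap knockout and at 1037 and 69.8 CPM in the control.

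The size of these ratios depends on who counts as other epithelium. Many cells with 3 panel genes were deep cells with little epithelial RNA. A stricter epithelium was therefore chosen by share, as cells that were not pit-like with at least 0.3% of their UMIs in the 8 genes. This took the place of the condition of 3 genes and gave 450 cells in the Yap knockout and 346 in the control. Against them 10 of 13 and 8 of 13 pit genes were higher in pit-like cells (median log2 ratio 0.33 and 0.23). Cldn18, the gastric claudin, then stood at -0.15 in the Yap knockout and -0.12 in the control, against 1.02 and 1.07 before. Agr2, a disulfide isomerase for mucins, stood at -0.06 and -0.21. Tff2, the trefoil peptide known from neck cells, stood at 0.28 and 0.23, and Foxq1 at 0.26 and -0.08. The ratio stayed high for Phgr1 (3.18 and 2.78), Sptssb (3.47 and 2.39), Gsta1 (2.78 and 2.07), Krt20 (2.53 and 2.92), Lypd8 (2.43 and 2.61) and Muc5b (1.97 and 2.10). Ctse, an aspartic protease of surface mucous cells, kept 1.88 and 1.24. Duox2, an oxidase that makes hydrogen peroxide at mucosal surfaces, kept 2.35 and 2.74, and Il18, a cytokine of epithelial barriers, 2.36 and 1.89.

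**Figure D2:**
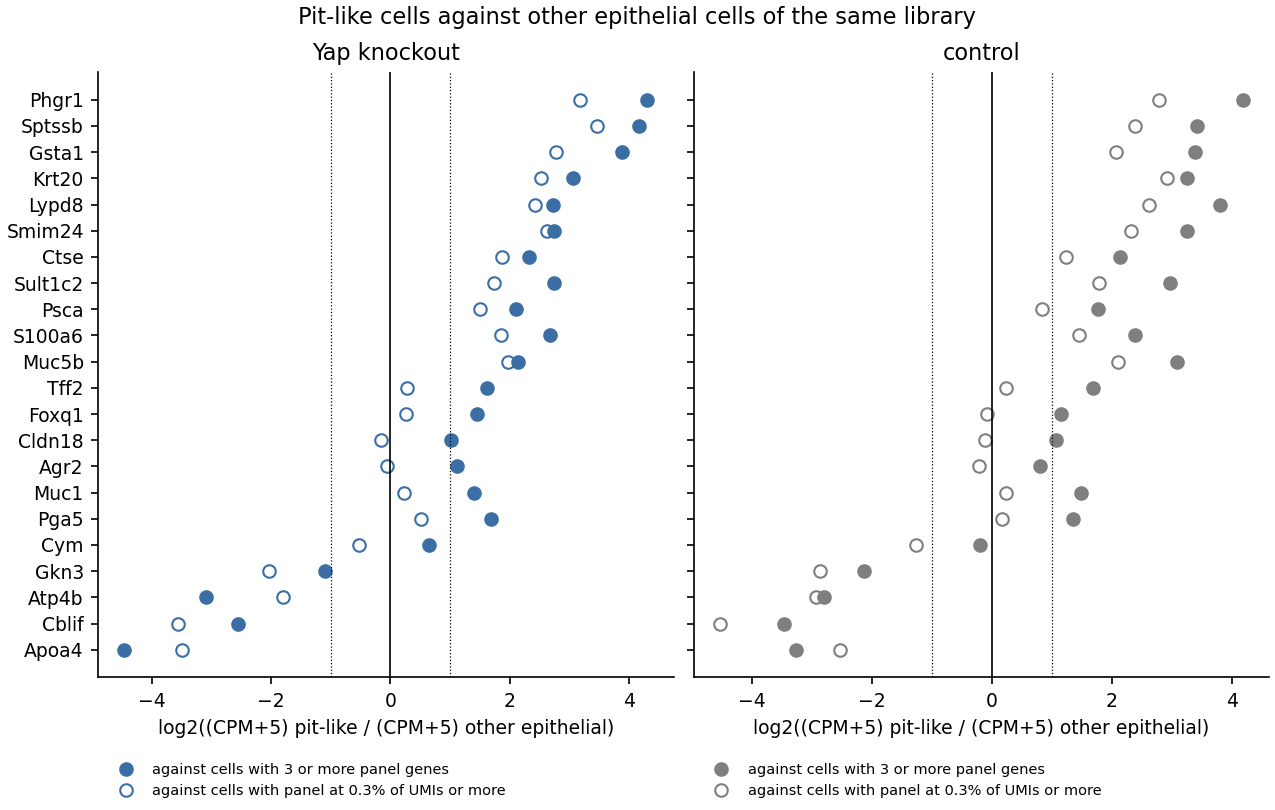
log2 ratio of pit-like to other epithelial cells for 22 genes (CPM plus 5) in the Yap knockout (left) and control (right) libraries; filled points use cells with 3 or more panel genes as the other epithelium, open points those with panel genes at 0.3% of UMIs or more. Phgr1, Sptssb, Gsta1 and Krt20 stay far to the right with both, while Cldn18, Agr2 and Foxq1 move to near 0.

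Against all other epithelial cells, parietal genes were low in pit-like cells, and neck and chief genes were split. All 4 measured parietal genes were at least 2-fold lower than in other epithelial cells in both libraries. Measured here means 50 CPM or more in either class. Genes that reached it only in other epithelial cells were thus lower by that choice. In pit-like cells of the Yap knockout or the control, 3 parietal, 7 neck and chief and 3 intestinal genes reached 50 CPM. Over all genes tested, 14.1% were at least 2-fold lower and 6.95% higher in the Yap knockout, and 7.65% and 8.45% in the control. Of 9 measured neck and chief genes, 3 were at least 2-fold higher and 6 at least 2-fold lower in the Yap knockout, and 2 higher and 6 lower in the control. Pga5, described above, is on this list and was among the higher ones. The summed list stood at 31573 CPM in pit-like and 13883 CPM in other epithelial cells of the Yap knockout. In the control it stood at 23590 and 11741 CPM. Against the stricter epithelium, 6 of 9 measured were at least 2-fold lower in the Yap knockout and 7 of 9 in the control. None was at least 2-fold higher in either, and Pga5 stood at log2 0.52 and 0.17. Of 4 parietal genes, 2 were at least 2-fold lower in each library. Over all genes tested there, 4.52% were at least 2-fold lower in the Yap knockout and 2.72% in the control. Atp4b, a subunit of the parietal proton pump, stood at 57.9 CPM in pit-like and 528 CPM in other epithelial cells of the Yap knockout, and at 60.6 and 451 CPM in the control. Cblif, intrinsic factor, stood at 7.40 and 67.4 CPM in the Yap knockout and at 8.66 and 146 CPM in the control. Apoa4, an intestinal apolipoprotein, stood at 99.7 and 2290 CPM in the Yap knockout and at 26.0 and 293 CPM in the control. Muc6, the mucin of neck cells, stood at 18.3 and 116 CPM in the Yap knockout and at 15.4 and 66.7 CPM in the control. Of intestinal genes, all 8 measured were at least 2-fold lower in pit-like cells of the Yap knockout, and 2 of 3 in the control, where the other was higher. Mki67, a marker of dividing cells, stood at 32.2 and 57.8 CPM in the Yap knockout and at 20.2 and 61.9 CPM in the control.

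Single cells carried some of the lineage signal that remained. Of the Pgc UMIs, a chief cell pepsinogen, 61.6% of those in Yap knockout pit-like cells came from 1 cell, as did 86.0% of Gkn3, a neck cell gastrokine, 67.2% of Ghrl, the ghrelin precursor, and 76.3% of Chga, a granule protein of endocrine cells. In the control, 53.1% of Atp4a, the proton pump itself, came from 1 cell. RNA of non-epithelial cells was spread more evenly. UMIs of at least 3 genes that mark other cells were found in 7 of 7 YAP5SA, 189 of 191 Yap knockout and 196 of 196 control pit-like cells. The 7 fibroblast genes together took a median 0.117% of a pit-like cell's UMIs in the Yap knockout and 0.870% in the control, against 0.164% and 1.74% in panel-negative cells. None of the 7 was at 0 UMIs in the pit-like cells of either. One Yap knockout cell had 36.3% of its UMIs in haemoglobin and other erythroid genes.

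Ranked genes leave out mitochondrial, ribosomal, haemoglobin and predicted ones and the rule genes. Among them, variance over mean across pit-like cells was highest for the secreted products Cym, Pga5 and Bpifb1. Over 524 genes with a mean of at least 0.2 UMIs in the thinned cells of both libraries, the median variance over mean was 1.24 in the Yap knockout and 1.22 in the control. It was 31.9 and 25.5 for Cym, 22.9 and 19.8 for Pga5 and 7.08 and 8.60 for Bpifb1. By the lower value, Mt1 (5.14 and 4.75) and Malat1 (4.34 and 4.16) ranked before Muc5b (3.68 and 4.30). The measure was not adjusted for the mean, which was 17.6 and 11.4 UMIs for Cym. Of the unranked, ENSMUSG00000141422 had 69.2 and 71.8, and the haemoglobin gene Hbb-bs 85.6 and 1.73. Cym ran from 0.0324% to 11.3% of a cell's UMIs in the Yap knockout (median 0.607) and from 0.0455% to 8.94% in the control (median 0.383). In 1 of 10 cells it reached 4.84% or more in the Yap knockout and 3.26% or more in the control. Muc5b had a median of 0.0798% in the Yap knockout and 0.204% in the control, with none in 32 and 19 cells. S100a6, a small calcium-binding protein, had a median of 0.325% and 0.396%. Across cells S100a6 tracked Tff1, with a Spearman correlation of 0.59 over 191 Yap knockout cells and 0.56 over 196 control cells. Krt19, a simple-epithelium keratin, had 0.55 and 0.41, and the nuclear RNA Malat1 -0.31 and -0.40. The cells of each correlation share a library, and Tff1 itself set who was included.

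**Figure D3:**
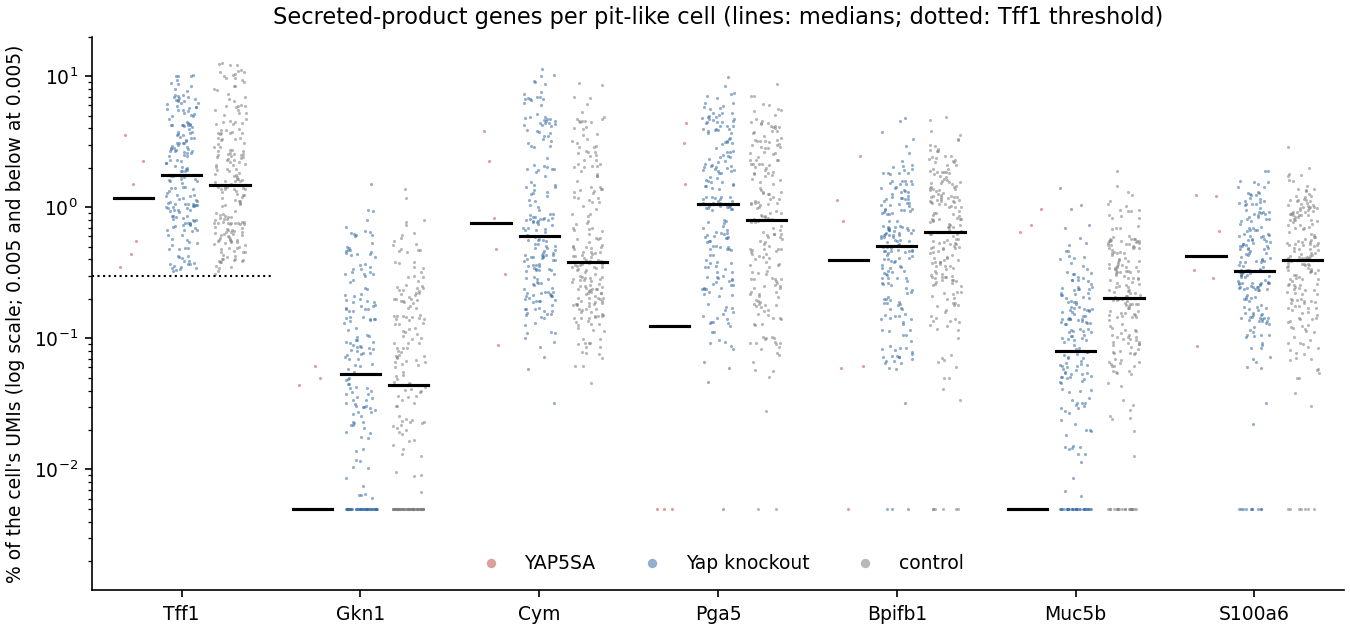
Percent of a cell's UMIs (log scale, values of 0.005% and below drawn at 0.005%) for 7 genes of secreted or abundant proteins in each pit-like cell of the YAP5SA, Yap knockout and control libraries; lines are medians and the dotted line is the Tff1 threshold of 0.3%. Cym runs from 0.0324% to 11.3% in the Yap knockout and Pga5 from 0 to 9.88%, and the Muc5b median is lower in the Yap knockout (0.0798%) than in the control (0.204%).

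The Yap knockout was then set against the control within pit-like cells. Yap1 itself stood at 17.9 CPM in the Yap knockout, from 41 UMIs, and 44.3 CPM in the control, from 46 UMIs, 2.48-fold lower (1.59 to 3.87) in the knockout. In YAP5SA pit-like cells it had 2 UMIs. In other epithelial cells it stood at 36.1 CPM in the Yap knockout and 57.3 CPM in the control, and in panel-negative cells at 47.9 and 52.2 CPM. With every pit-like cell weighted equally the log2 difference for Yap1 was -0.38 in place of -1.11. Whether the 3′ tags lie in the deleted part of the gene is likewise not given, so these counts do not measure the deletion.

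Of 3060 genes at 50 CPM or more in either library, 49 were at least 2-fold higher in Yap knockout pit-like cells (1.60%) and 152 at least 2-fold lower (4.97%), with a median log2 ratio of -0.03. TMM scaling put the median at 0.15 and the split at 81 higher and 119 lower, so that 59.5% in place of 75.6% of the called genes were lower. Much of this was not confined to pit-like cells. Of the 49 genes, 27 were also at least 2-fold higher in panel-negative cells and 31 in other epithelial cells, and of the 152, 77 and 83 were also lower there.

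Those shared differences led the ranking. The lowest genes were Col1a1, Serping1, Plac9, Dlk1, Itm2a, Col1a2, Mfap4, Loxl1, Dpt and Dcn, mostly products of fibroblasts. Col1a1, type I collagen, stood at 680 CPM in Yap knockout and 5360 CPM in control pit-like cells, and at 2248 and 11158 CPM in panel-negative cells. Among the highest were Ghrl, Chga, Sncg, Uchl1, Stmn3, Gap43, Tubb3, Apoa4 and Jarid2, many of them genes of neurons or endocrine cells. Tubb3, the neuronal tubulin, stood at 168 CPM in Yap knockout and 38.5 CPM in control pit-like cells, and at 381 and 81.1 CPM in panel-negative cells. The part of free RNA in these values was not tested.

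Secreted products differed from the control in both directions. Muc5b stood at 1145 CPM in the Yap knockout and 2616 CPM in the control, 2.29-fold lower (2.17 to 2.41). Its log2 difference was -1.19 in pit-like cells, -0.24 in other epithelial cells and -0.03 in panel-negative cells. In the stricter epithelium Muc5b was also lower, at 289 CPM in the Yap knockout and 606 CPM in the control. The pit-like difference ran from -1.41 to -1.02 over the 16 alternative settings. Cym was 1.56-fold higher (1.54 to 1.59) in Yap knockout pit-like cells and Pga5 1.40-fold higher (1.38 to 1.42). Tff2 stood at 1274 CPM in the Yap knockout and 1964 CPM in the control, and Phgr1 at 1058 and 1725 CPM. Of the rule genes, Tff1 differed by 1.01-fold and Gkn1 by 1.08-fold (1.00 to 1.18), while Gkn2 stood at 737 CPM in the Yap knockout and 461 CPM in the control. Those 3 are described only, as their levels set who was included. Over the 13 measured pit genes outside the rule, 7 were higher and 6 lower in the Yap knockout (median log2 0.10).

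**Figure D4:**
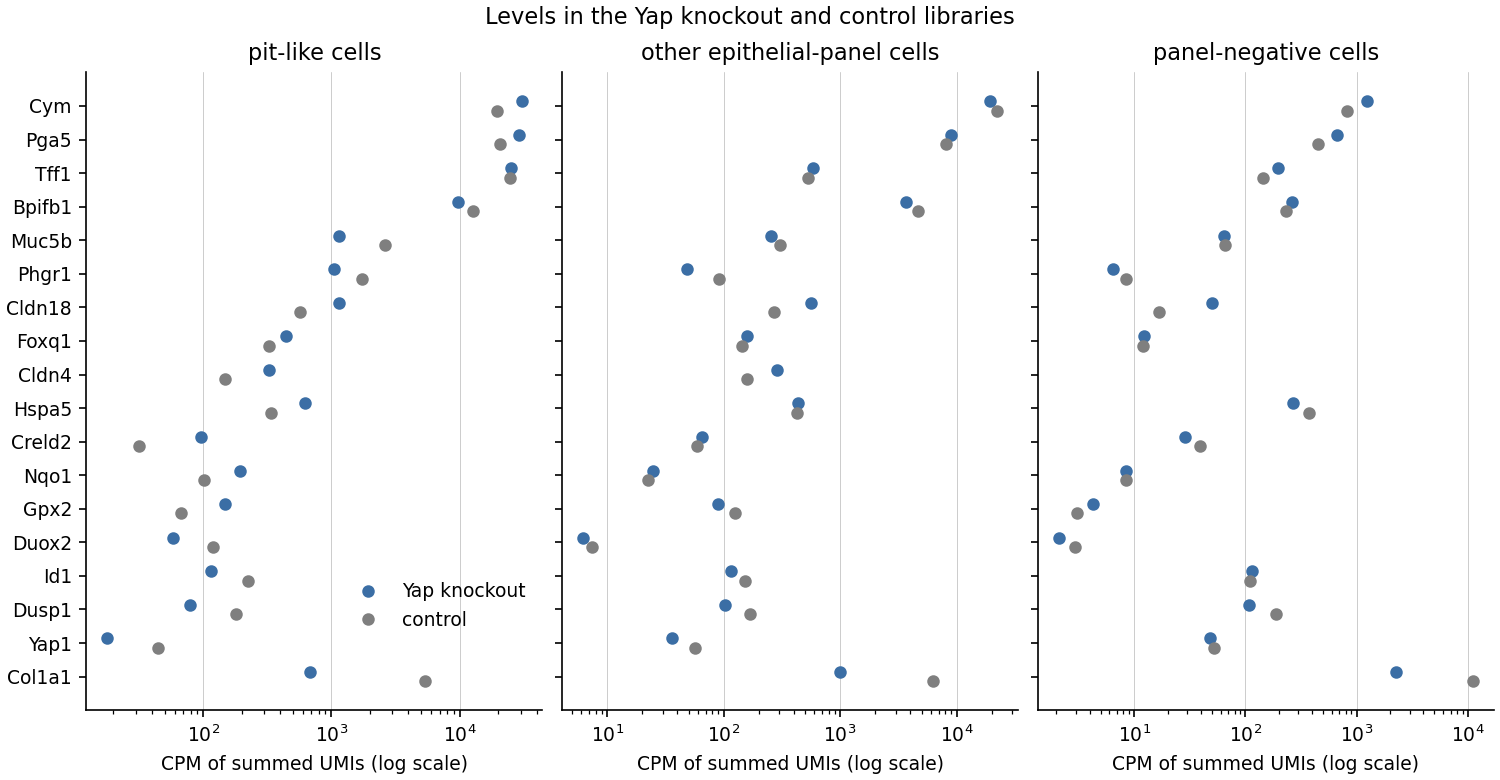
CPM of summed UMIs (log scale) for 18 genes in pit-like, other epithelial-panel and panel-negative cells of the Yap knockout and control libraries; a gene at 0 has no point. Muc5b differs between the libraries in pit-like cells (1145 and 2616 CPM) and hardly in panel-negative cells (64.9 and 66.2 CPM), whereas Col1a1 is lower in the Yap knockout in all 3 classes.

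Genes for folding and export of secreted proteins were mostly higher in Yap knockout pit-like cells. Of 28 measured genes of the endoplasmic reticulum list, 24 were higher (median log2 0.34), against 14 of 28 in other epithelial cells (median -0.02) and 4 of 28 in panel-negative cells (median -0.37). Hspa5, the main chaperone of this compartment, stood at 618 CPM in the Yap knockout and 336 CPM in the control, 1.84-fold higher (1.64 to 2.08), with log2 differences of 0.87, 0.02 and -0.48 in the same 3 classes. Manf, a secreted folding factor, was 1.79-fold higher (1.46 to 2.20). Creld2, a stress-induced chaperone, stood at 97.1 CPM in the Yap knockout and 31.8 CPM in the control, 3.06-fold higher (2.12 to 4.55). It was the only one of the 28 past 2-fold. With every cell weighted equally, 15 of 27 genes were higher (median 0.06) and Creld2 stood at 0.78, so their size depends on how cells are weighted. Agr2 stood at 519 CPM in the Yap knockout and 300.2 CPM in the control.

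Antioxidant and detoxifying enzymes showed the same tilt. Of 20 measured genes, 17 were higher in Yap knockout pit-like cells (median log2 0.40), against 9 of 20 in other epithelial cells (median -0.05) and 13 of 20 in panel-negative cells (median 0.12). Gpx2, the gastrointestinal glutathione peroxidase, stood at 148 CPM in the Yap knockout and 67.4 CPM in the control, 2.20-fold higher (1.70 to 2.89), while its log2 difference in other epithelial cells was -0.46. Nqo1, a quinone reductase, was 1.91-fold higher (1.54 to 2.39). Cyp2s1, a cytochrome P450 of epithelia, went the other way with 189 CPM in the Yap knockout and 271 CPM in the control. Weighting cells equally left 15 of 18 genes higher, with a median of 0.40.

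Mucosal defence genes were on the lower side. All 6 measured genes had a lower value in Yap knockout pit-like cells (median log2 -0.52), against 5 of 6 in other epithelial and 3 of 6 in panel-negative cells. Duox2 stood at 58.4 CPM in the Yap knockout and 120 CPM in the control, 2.06-fold lower (1.60 to 2.65), and Duoxa2, its maturation factor, at 42.7 and 76.0 CPM. Bpifb1 was 1.32-fold lower in the knockout, and Il18, at 81.5 and 84.7 CPM, differed by less than its counting error. Applying the rule to cells thinned to 1000 UMIs left 109 Yap knockout and 119 control members. Over the full counts of those members the list's median was -0.03, with 2 of 6 genes higher. TMM scaling left 1 of 6 higher (median -0.37). Trpv6, an epithelial calcium channel, stood at 16.6 CPM in the Yap knockout and 53.9 CPM in the control.

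Genes of signalling pathways differed by list. Of 7 measured genes of Hedgehog and BMP signalling, 6 were lower (median log2 -0.59), against 4 of 7 in other epithelial and 1 of 7 in panel-negative cells. With TMM scaling 4 of 7 were lower (median -0.44). Id1, a target of BMP, stood at 115 CPM in the Yap knockout and 222 CPM in the control, 1.93-fold lower, and at -0.38 on the log2 scale with cells weighted equally. Smad7, an inhibitor of this pathway, stood at 36.2 and 68.3 CPM. Ihh, the hedgehog ligand of surface cells, stood at 113 and 118 CPM. Of 5 measured YAP and TEAD targets, 4 were lower (median -0.18) and none reached 2-fold. TMM scaling left 3 of 5 lower (median -0.03). Ccn1, a classical target, stood at 112 CPM in the Yap knockout and 149 CPM in the control, while Areg, an ErbB ligand, stood at 118 and 77.9 CPM. Of 5 measured genes of ErbB ligands and feedback, 3 were higher (median 0.02). Immediate early genes were lower in 13 of 15 cases (median -0.53), a tilt also present in other epithelial cells (median -0.47) and panel-negative cells (median -0.51). Dusp1, a phosphatase of this group, stood at 78.4 CPM in the Yap knockout and 181 CPM in the control.

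Transcription factors and junction genes of the epithelium were mostly higher, as in other epithelial cells. Of 10 measured transcription factors 8 were higher (median log2 0.36), against 8 of 10 in other epithelial cells (median 0.11) and 4 of 10 in panel-negative cells (median -0.03). Among them was Foxa1, a foregut forkhead factor, at 52.7 CPM in the Yap knockout and 24.1 CPM in the control. Klf4, a factor of differentiated surface epithelium, was lower at 264 and 380 CPM. Among 18 junction and cytoskeleton genes 13 were higher (median 0.20), against 14 of 18 in other epithelial cells (median 0.26), and Cldn4, a claudin, stood at 325 CPM in the Yap knockout and 148 CPM in the control, 2.19-fold higher (1.84 to 2.63). Cldn18 was 2.01-fold higher (1.84 to 2.20) in pit-like cells, with a like difference in other epithelial cells (log2 1.05) and panel-negative cells (log2 1.35). Of nuclear genes of the respiratory chain 15 of 19 were higher (median 0.12), and of glycolysis 7 of 13 (median 0.01). With TMM scaling these became 17 of 19 (0.29) and 11 of 13 (0.17).

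**Figure D5:**
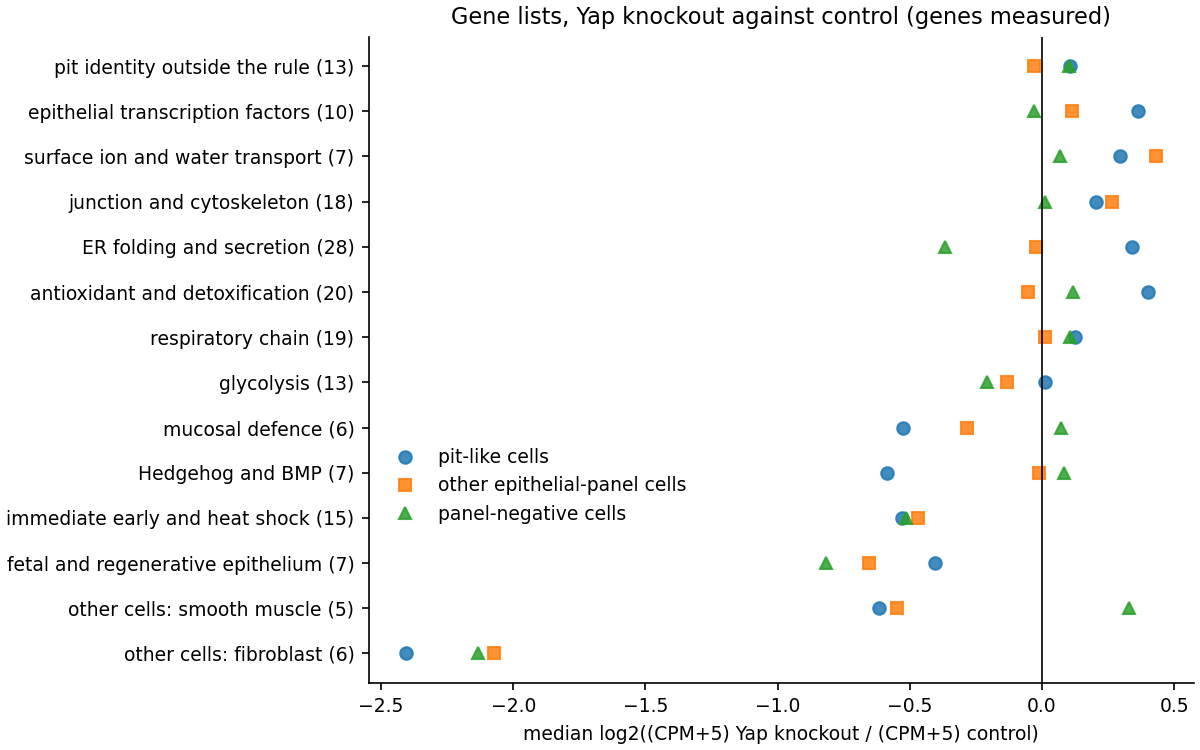
Median log2 ratio of the Yap knockout to the control (CPM plus 5) for 14 gene lists in pit-like, other epithelial-panel and panel-negative cells, with the number of genes measured in pit-like cells in brackets. The endoplasmic reticulum list lies at 0.34 in pit-like cells, -0.02 in other epithelial cells and -0.37 in panel-negative cells, while the fibroblast list is far to the left in all 3 (-2.40, -2.07 and -2.13).

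Genes whose difference of at least 2-fold was under 0.5 on the log2 scale, or opposite, in both other classes numbered 6 on the higher and 29 on the lower side. The higher side held, among ranked genes, Creld2, Cfi (complement factor I), Ugt2b34 (a glucuronosyltransferase), Gpx2 and Hacd1 (an enzyme of very long fatty acids). Among the lowest on the other side were Unc5b, a netrin receptor, at 20.9 CPM in the Yap knockout and 71.2 CPM in the control, Trpv6 and Muc5b. Unc5b rests on 48 UMIs and Trpv6 on 38 in the Yap knockout, against 74 and 56 in the control, and the difference between classes was not tested. Muc5b was lower in the stricter epithelium too, at 289 CPM in the Yap knockout and 606 CPM in the control.

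The quality of pit-like cells differed between libraries. Their median mitochondrial share was 1.61% in YAP5SA, 0.784% in the Yap knockout and 2.54% in the control. In other epithelial cells it was 0.865% in the Yap knockout and 1.33% in the control, and in panel-negative cells 0.712% and 0.926%. All 10 measured mitochondrial genes were at least 2-fold lower in Yap knockout pit-like cells (median log2 -1.62), against medians of -0.31 in other epithelial and -0.11 in panel-negative cells. Pit-like cells under 2000 UMIs numbered 1 of 7 in YAP5SA, 29 of 191 in the Yap knockout and 51 of 196 in the control. The part of mitochondrial share and depth in the differences above was not tested. Without the cells under 2000 UMIs, Muc5b stood at -1.19, Creld2 at 1.49 and Gpx2 at 1.01 on the log2 scale.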

How the data were processed

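The authors deposited counts of UMIs, not normalised, for each gene in each cell. The file headers name PISA 1.0, and the submitters' processing notes STAR and GRCm39. The annotation release, cell calling and any correction for free RNA are not given in the sources used here. No deposited cell had under 1000 UMIs. Pit-like members, the 36 gene lists and the named genes were chosen with earlier results of these data known. For each library, the UMIs of a class's cells were added up and divided by the class total to give CPM. Ratios are log2 of CPM plus 5 over CPM plus 5, for genes at 50 CPM or more in either class, and a gene past 2-fold was called. Folds have exact conditional Poisson intervals and shares exact Clopper-Pearson intervals. Thinning drew 1000 UMIs per cell, and no cell was left out. As an alternative to the rule it changed only who was a member, and the full counts of those members were compared. Scrublet (scanpy 1.11.5) gave 0 doublets by its own threshold in each library, a value that a threshold not found would also give. Doublets were kept, and removing the cells with the top 6% of scores was an alternative. Genes were named as the 12 highest and 6 lowest of pit-like against other epithelial cells in both libraries, the 10 highest and 10 lowest of Yap knockout against control, up to 3 at each end of each list, the 8 most variable and a fixed set; mitochondrial, ribosomal, haemoglobin, sex-linked and predicted genes were not ranked, and 1 gene that the rule named is not reported here. Cym, Psca, Ctse and the genes under 0.5 in both other classes were chosen after their values were seen. Alternatives changed the thresholds, depth, scaling (TMM, edgeR 4.0.16), pseudocount and expression minimum; those with the stricter epithelium, equal weights, the top cell of each gene left out and the cells with most other-cell RNA removed were chosen after seeing the data. The calculation of folds, calls and intervals was checked on simulated counts. Software was R 4.3.3 and Python 3.11.15 with pandas 2.3.3, scipy 1.17.1, numpy 2.4.6 and matplotlib 3.10.9.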

Additional observations from a re-analysis of the deposited data

Results flagged for a closer look

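A transcript listed only as ENSMUSG00000141422 went in opposite directions in different cells. Among pit-like cells it was at 7373 CPM in the Yap knockout and 16758 CPM in the control, a log2 difference of -1.18. In other epithelial cells it stood at 12221 CPM in the Yap knockout and 7072 CPM in the control (0.79), and in panel-negative cells its log2 difference was 1.07. Opposite differences of at least 1.5-fold drew attention to it, and the difference between classes was not tested.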

How the results depend on the processing

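No paired analysis was possible because each genotype has 1 library. The Yap knockout share of filtered cells was above the control share under every alternative to the rule, and its share of epithelial-panel cells below it, apart from the removal of members with 3 other-cell markers. That removal left 0, 0.0385% and 0 of filtered and 0, 0.179% and 0 of epithelial-panel cells in YAP5SA, Yap knockout and control, too few for any contrast. In the same order of libraries, filtered share first, 1 marker gave 0.199%, 4.46% and 3.59%, and 0.552%, 19.9% and 31.4%. With 3 markers the shares were 0.0222%, 2.86% and 1.72%, and 0.0614%, 13.0% and 16.2%. Thinned cells gave 0.0222%, 2.10% and 1.61%, and 0.0614%, 9.54% and 14.9%. For Yap knockout and control, Tff1 at 0.1% gave 4.35% and 3.16%, and 19.4% and 28.3%, and Tff1 at 1% 2.58% and 1.63%, and 11.8% and 15.3%. Members with 2000 UMIs or more gave 3.11% and 1.97%, and 14.2% and 18.8%. Removing the members with most other-cell RNA gave 1.83% and 1.33%, and 8.40% and 12.8%. The epithelial-panel share was 9.58% and 12.2% with 2 panel genes, 25.3% and 36.7% with 4, and 29.8% and 36.2% with the panel at 0.3% of UMIs.

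Genes at least 2-fold higher in Yap knockout pit-like cells numbered 81 with TMM scaling and 80 with cells weighted equally. With the rule applied to thinned cells they numbered 127, over the full counts of the 109 Yap knockout and 119 control members left. A minimum of 20 CPM gave 109 higher and 334 lower, and no minimum 238 and 560. For pit-like against other epithelial cells in the Yap knockout, the counts were 417 higher and 247 lower with TMM scaling, 381 and 1494 with no minimum, and 119 and 144 with the panel at 0.3% of UMIs. The lower count was 243 with 4 panel genes, 1107 at 20 CPM and 260 with equal weights. In the control they were 535 and 816 with no minimum and 133 and 86 with the panel at 0.3%, and the lower count was 142 with 4 panel genes, 511 at 20 CPM and 139 with equal weights. The cause of these shifts was not tested. Some ratios of pit-like to other epithelial cells that were at least 2-fold changed sign with the panel at 0.3%. On the log2 scale these became 0.11 in the Yap knockout and 0.51 in the control for Tagln, and 0.67 in the Yap knockout for Cldn5. Cldn18 became -0.15 and -0.12, Agr2 -0.058 in the Yap knockout and Foxq1 -0.080 in the control. With 1 marker Muc6 became 0.54 in the control. Smaller ratios are not listed, though Cym in the Yap knockout also changed sign with the panel at 0.3% (-0.53). Among values of single genes and gene lists together, 3508 stayed within counting error or, for list counts, within a fixed margin. Another 812 moved, and 8 from at least 2-fold changed sign. Without the top cell, Ghrl stood at 1.85, Chga at 1.53, Pgc at 0.33 and Gkn3 at -0.70 between Yap knockout and control.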
